A study of Mus musculus with 4 samples.

Results

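The genes described here encode the enzymes that make and break down cyclic AMP (cAMP) and cyclic GMP (cGMP). They were chosen by gene symbol alone: Adcy followed by a number for the adenylyl cyclases, Pde followed by a number and a letter from a to h for the phosphodiesterases, and Gucy followed by a number, a letter and a number for the subunits of soluble guanylyl cyclase. The rule found 38 of the 32287 features counted, 10 adenylyl cyclases, 24 phosphodiesterase genes and 4 guanylyl cyclase subunits, all protein coding. Nuclei came from frozen medial prefrontal cortex of C57BL/6J mice aged 9 weeks, and RNA was read at the 3' end with 10x Genomics v3.1 chemistry. The labels give 2 samples from mice injected with DOI, a psychedelic that acts on serotonin 2A receptors, and 2 from mice given saline, taken 24 hours after injection, with 1 female and 1 male sample in each group. Mice of both groups expressed scFLARE2 together with TRE-mCherry-p2a-bReaChES, a light- and calcium-gated transcription system whose output is a red fluorescent protein joined to a channelrhodopsin. The labels do not say whether a sample is 1 animal, nor how the transgenes were delivered or which promoter drove the first. All samples sit in 1 matrix whose barcodes end in a number from 1 to 4, and no source links those endings to the labels, so the endings are called libraries 1 to 4 and DOI was not compared with saline, nor females with males.

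Cyclic AMP is made from ATP by adenylyl cyclases, most of which sit in the plasma membrane and are switched by G proteins and calcium, and cyclic GMP is made by guanylyl cyclases. The soluble guanylyl cyclase is a pair of an alpha and a beta subunit that binds nitric oxide. Phosphodiesterases end both signals, and each gene family has its own preference: some hydrolyse cAMP only (the Pde4, Pde7 and Pde8 families), some cGMP only (Pde5, Pde6 and Pde9) and some both (Pde1, Pde2, Pde3, Pde10 and Pde11). In the forebrain the mix of cyclases and phosphodiesterases sets how far and how long a neuron responds to dopamine, noradrenaline, serotonin and nitric oxide.

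A cAMP response element, the DNA site of the cAMP-regulated factor CREB, was looked for in promoters, because these enzymes control the signal that acts on it. RefSeq promoter windows on GRCm38.p6, from 250 bases before to 50 bases after a gene's start, were given for 29 of the 38 genes. Only the 250 bases before the start were searched, in members and in all genes. The full element TGACGTCA was in the windows of 0 of these 29 genes, against 1.77% of 27025 genes. The shorter form TGACG, searched on both strands, which is part of the full element, was in 9 of 29 genes (31.0%), against 19.8% of all genes: Adcy7, Adcy9, Gucy1a2, Gucy1b1, Pde1a, Pde4a, Pde4b, Pde6h and Pde8a. A gene can have several windows, and counted by window the form was in 9 of 54 windows of the members, against 17.8% of 32851 windows. A match describes letters in a window and is not a bound site. The stretches below belong to 5 genes whose levels the results turn on, written 5' to 3' on the gene's strand with the matched letters in capitals, CGTCA being the same form read on the other strand.
Gucy1b1, chr3:82074715-82074759, minus strand: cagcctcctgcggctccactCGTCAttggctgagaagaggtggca
Gucy1a2, chr9:3532223-3532267, plus strand: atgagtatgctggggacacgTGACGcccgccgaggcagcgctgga
Pde8a, chr7:81213161-81213205, plus strand: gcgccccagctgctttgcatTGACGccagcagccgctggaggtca
Pde1a, chr2:80039044-80039088, minus strand: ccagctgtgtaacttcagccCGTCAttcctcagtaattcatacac
Adcy9, chr16:4420499-4420542, minus strand: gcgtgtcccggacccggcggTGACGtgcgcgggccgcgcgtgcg
The match lay 28 bases before the RefSeq start in Gucy1b1, 106 in Gucy1a2, 84 in Pde8a, 166 in Pde1a and 24 in Adcy9. The Pde1a stretch lies inside the span of that gene in GENCODE M21 (chr2:79834453-80129458), so its RefSeq start is not the outermost one. Of these 5 genes, Gucy1b1 and Gucy1a2 had their highest levels in layer 2/3 neurons, with library ranges that overlap the next class, Adcy9 and Pde1a in layer 6 neurons and Pde8a in oligodendrocytes, as described below.

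After filtering, 12991 of 22402 barcodes were kept, with a median of 8892 unique molecular identifiers (UMIs, the counted RNA molecules) per nucleus, and 7305 to 10314 by library. Nuclei fell into 20 clusters, most of them named from marker genes. There were 8304 excitatory nuclei in 8 clusters, 1351 inhibitory nuclei in 4 (Pvalb-, Sst-, Vip- and Lamp5-like), 338 medium spiny neuron-like nuclei and 258 neuroblast-like nuclei. Glia were 521 astrocyte-like, 970 oligodendrocyte-like and 394 oligodendrocyte precursor-like nuclei with 77 committed precursor-like nuclei. Clusters 13 (555 nuclei, led by Runx1 and Inpp5d) and 18 (223 nuclei, led by globin genes and Flt1) stayed unnamed, as did the excitatory clusters 3, 4 and 6. Medium spiny neurons belong to the striatum rather than the cortex, and of the 338 such nuclei 227 were in library 1, 78 in library 2, 32 in library 3 and 1 in library 4. Across libraries, 50 barcode sequences were seen more than once.

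A level here is the UMIs of a gene for each 1000000 UMIs of a class (CPM), and brackets after a log2 ratio hold its exact 95% interval, which covers counting error only. Because the matrix is 1 sample, there is no test: a gene is called different where its nuclei hold at least 100 UMIs, the 2 classes differ at least 2-fold and the sign is the same in all 4 libraries. Calls were made again under up to 14 other settings, such as another mitochondrial limit, doublets kept or 1 library left out. The libraries may be animals or runs, and so their spread is not known to be that between animals. Glia and inhibitory nuclei also held RNA of excitatory neurons. Slc17a7, the vesicular glutamate transporter of cortical excitatory neurons, stood at 246 CPM in excitatory nuclei, 153 CPM in astrocyte-like, 188 in oligodendrocyte-like, 230 in cluster 13 and 418 in cluster 18. All 7 genes of the excitatory marker list were detected in each class, with none at 0, and summed to between 2330 and 3318 CPM in excitatory clusters, 501 in oligodendrocyte-like, 525 in astrocyte-like, 820 in committed precursor-like, 1009 in precursor-like, 1236 in cluster 13 and 1807 in cluster 18 nuclei. Inhibitory nuclei had 76.6 CPM of Slc17a7. The excitatory list summed to 247 CPM in Pvalb-like, 367 in Sst-like, 613 in Lamp5-like and 695 in Vip-like nuclei. That RNA's part in the levels and ratios below, also those between inhibitory classes, was not tested.

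The 38 genes held 995667 UMIs, 0.780% of all UMIs in kept nuclei. Pde4d, Pde10a, Pde4b and Pde1a together held 67.6% of them. Nuclear counts grow with the length of a gene, and per 100 kb of gene the order was Pde4a (348 CPM), Pde10a (307), Pde1a (274), Adcy9 (196), Pde4b (188) and Pde4d (138), so the short Pde4a gene led on this scale. There were 32 genes with at least 500 UMIs. Pde6c (167 UMIs), Pde6b (148) and Pde4c (134) were rare, and Gucy1b2 (93), Pde6g (65) and Adcy4 (3) had fewer than 100 UMIs. Of the 38 genes, 12 overlap a gene on the opposite strand and 0 one on the same strand. How strand was used in counting is not given in the sources used here, so values of those 12 may include their partner: Adcy2, Adcy3, Adcy6, Adcy8, Adcy10, Pde3a, Pde5a, Pde6h, Pde7a, Pde8b, Pde9a and Pde10a.

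Of the 32 genes with at least 500 UMIs, 8 had their highest level in medium spiny-like nuclei, 4 in committed precursor-like nuclei and 3 in cluster 13, while 1 was highest in the astrocyte-like and 2 in the oligodendrocyte-like nuclei. The same count was not made over all genes, so these numbers have no share beside them. Library ranges overlapped the next class for Gucy1a1, Pde10a and Pde6a in medium spiny-like nuclei. They also did for Adcy10, Adcy6 and Pde7a in committed precursor-like nuclei and for Pde6h in cluster 13. For Pde8a, Pde3b, Pde11a, Pde1b and Adcy5 the highest class exceeded the next by 12.0-, 8.55-, 7.35-, 6.64- and 6.16-fold, and their library ranges did not overlap. At the other end, Gucy1a1, Gucy1b1, Adcy6, Pde7a, Pde4d, Pde4a and Adcy3 had a first and a next class within 1.08-fold and with overlapping library ranges.

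**Figure D1:**
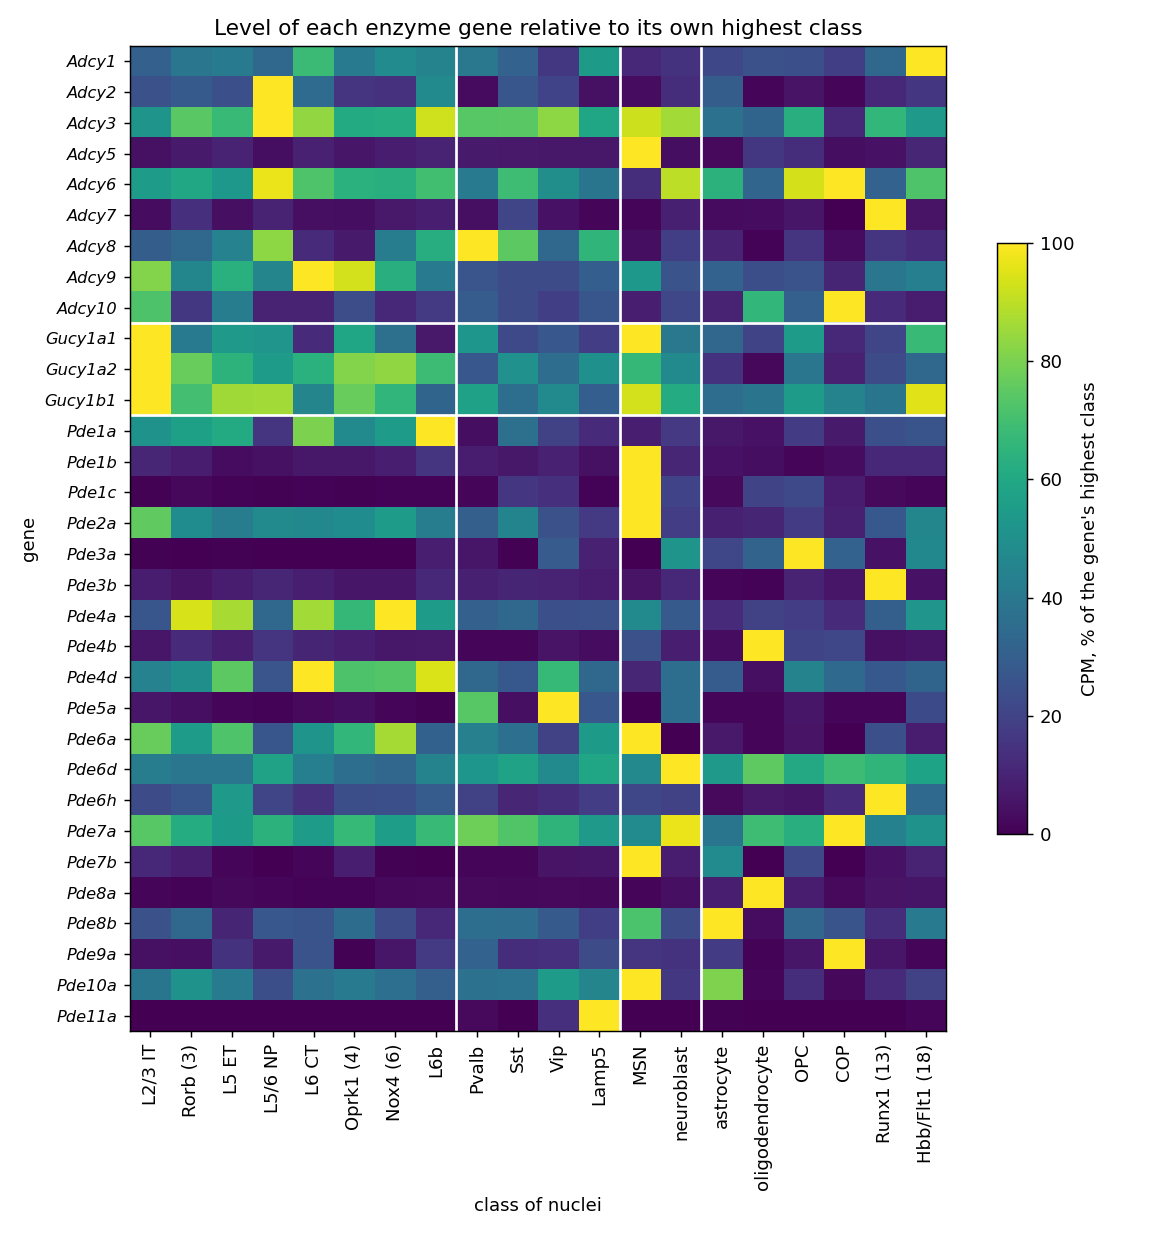
Heat map of the 32 genes with at least 500 UMIs (rows) in 20 classes (columns). Colour is the level in CPM as a percent of the gene's own highest class, and white lines part excitatory, inhibitory, medium spiny and neuroblast, and other classes. Brighter is higher. Pde8a, Pde11a, Pde3b, Pde1b and Adcy5 each show 1 bright cell in a dark row, while Pde7a and Pde6d stay brighter across the row.

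Between the broad groups, neurons (9655 excitatory and inhibitory nuclei) were set against 1962 named glia. Of 35 genes tested, 16 were called higher in neurons and 5 lower, 21 in all, where 37.1% of all genes were called (16.0% higher and 21.1% lower). Their median log2 ratio was 0.92, beside -0.28 over all genes. Adenylyl cyclases gave 3 higher and 0 lower calls of 9 tested, soluble guanylyl cyclase subunits 1 and 0 of 3, and phosphodiesterases 12 and 5 of 23. The 5 genes lower in neurons were Pde3a, Pde8a, Pde1c, Pde4b and Pde7b. They are phosphodiesterases, as are 23 of the 35 genes tested, and 5 of 23 is near the 21.1% of all genes called lower. With a limit of 1% in place of 5% mitochondrial UMIs, 7 genes were called. The named glia were then another set, 39 astrocyte-like, 34 oligodendrocyte-like and 40 microglia-like nuclei.

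Excitatory and inhibitory nuclei differed in 12 of 35 genes, where 16.6% of all genes were called. In excitatory nuclei 6 were higher (9.16% of all genes) and 6 lower (7.47%). The members' median was -0.01, beside -0.13 over all genes. Among the excitatory clusters, called genes were 7 of 30 in layer 2/3 intratelencephalic-like nuclei (11.7% of all genes), 5 of 30 in layer 5 extratelencephalic-like (8.02%), 11 of 30 in layer 5/6 near-projecting-like (12.8%), 6 of 30 in layer 6 corticothalamic-like (9.63%) and 6 of 30 in layer 6b-like nuclei (11.2%). They are written L2/3 IT, L5 ET, L5/6 NP, L6 CT and L6b. Each was set against the other named classes of this list together, without the unnamed excitatory clusters. Those named classes are the other excitatory nuclei of the ratios below. Inhibitory classes, each against the others, had 8 of 30 in Pvalb-like (8.6% of all genes), 7 of 30 in Sst-like (6.05%), 7 of 30 in Vip-like (9.89%) and 6 of 30 in Lamp5-like nuclei (10.5%). Glial classes, each against the other named glia, had 11 of 26 in astrocyte-like (24.3%), 15 of 26 in oligodendrocyte-like (26.8%), 12 of 26 in precursor-like (21.6%) and 12 of 26 in committed precursor-like nuclei (26.2%), 50 calls in all and 4 with the 1% mitochondrial limit. Medium spiny-like nuclei differed from cortical neurons in 17 of 35 genes, where 18.5% of all genes were called. Of these 8 were higher (2.37% of all genes) and 9 lower (16.1%). A gene with 0 UMIs on 1 side in a library counts as lower on that side there. Library 4 holds 1 medium spiny-like nucleus, so any gene absent from it could not be called higher, members and all genes alike. The count was 21 of 34 without library 4, 10 higher and 11 lower, where 21.1% of all genes were called. The split over all genes was not counted without that library. The share of members called was above that of all genes in each of these 16 comparisons, and no test was run on that excess. Pde7b was called in 14 of the 16, Adcy2 in 11 and Adcy8 in 9, while Pde6d and Pde7a were called in 0.

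**Figure D2:**
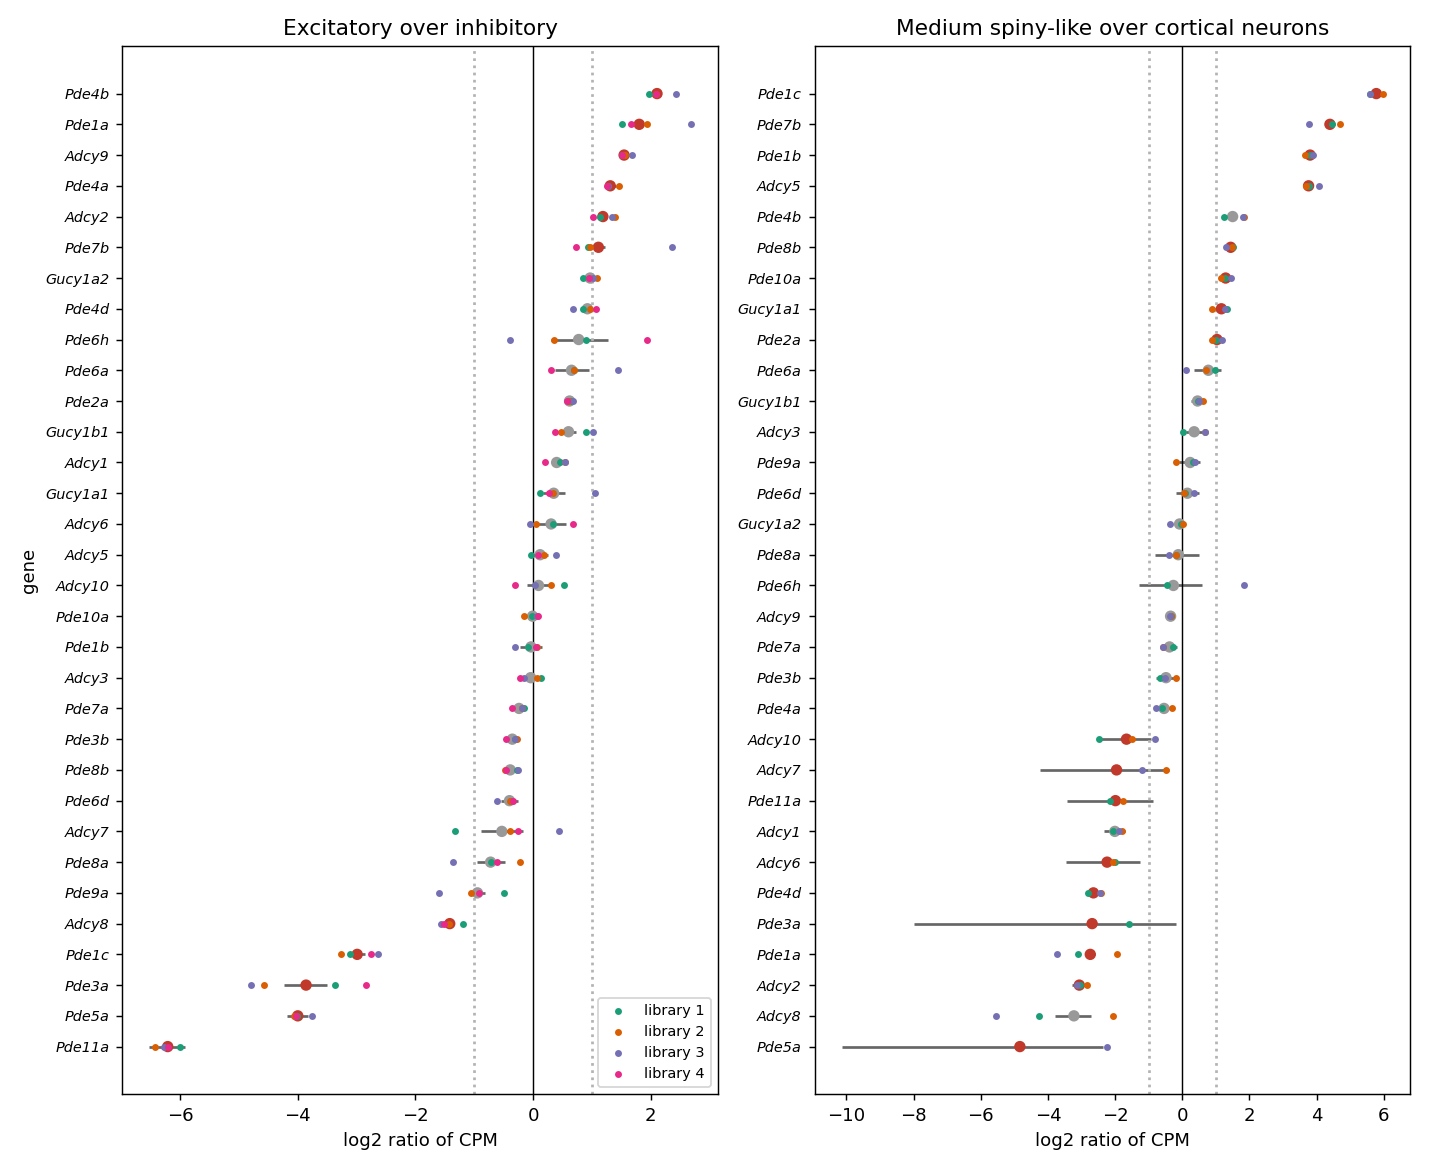
Log2 ratio of each gene, excitatory over inhibitory nuclei (left) and medium spiny-like over cortical neurons (right). Large red points are called genes and grey points are not, horizontal bars are 95% counting intervals, small dots are single libraries (library 4 is left out on the right) and dotted lines mark 2-fold. Pde11a (-6.21) and Pde5a (-3.9996) lie far to the inhibitory side, and Pde1c (5.78) and Pde7b (4.40) far to the medium spiny side.

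The adenylyl cyclases come first. Adcy2, a membrane cyclase that G-protein beta-gamma subunits stimulate, had its highest level in L5/6 NP nuclei, 1929 CPM (1676, 2082, 2133 and 1940 CPM in libraries 1 to 4). L6b came next with 915 CPM, and the libraries of the 2 classes did not overlap. The log2 ratio of L5/6 NP to other excitatory nuclei was 1.72 [1.68, 1.76]. Over excitatory and inhibitory nuclei the levels were 584 and 256 CPM, a log2 ratio of 1.19 [1.14, 1.24]. Inhibitory classes parted widely for this gene: Sst-like nuclei had 516 CPM (489, 444, 473 and 601) and Pvalb-like nuclei 52.9 CPM (46.3, 63.4, 47.6 and 51.1). Every Sst-like library was above every Pvalb-like one, and the log2 ratios to the other inhibitory nuclei were 1.97 [1.87, 2.08] for Sst and -2.98 [-3.15, -2.81] for Pvalb. Astrocyte-like nuclei held 568 CPM, a log2 ratio of 3.28 [3.09, 3.46] over other glia, against 35.7 CPM in oligodendrocyte-like nuclei (-3.16). Neither glial call was kept at the 1% mitochondrial limit (0.25 and -0.29).

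Adcy8 and Adcy1 are the cyclases that calcium and calmodulin switch on. Adcy8 had its highest level in Pvalb-like nuclei, the interneuron class with the least Adcy2, 313 CPM (276, 316, 351 and 316). Inhibitory nuclei as a whole had 247 CPM and excitatory nuclei 92.4 CPM, a log2 ratio of -1.42 [-1.48, -1.36] for excitatory over inhibitory. Within excitatory nuclei, L5/6 NP had 259 CPM (1.55 [1.46, 1.65]) and L6 CT 38.6 CPM, with 34.9, 47.6, 40.4 and 34.9 in the libraries (-1.85 [-1.95, -1.75]). L6b was also called higher (1.06), but not without library 4 (0.87). Oligodendrocyte-like nuclei held 9 UMIs of Adcy8, 3.06 CPM, and their call against other glia (-3.54) was kept in 8 of 14 settings, with ratios from -3.83 to 0.71. Adcy1 was flatter: L6 CT had 204 CPM (186, 210, 204 and 213) and the other cortical neuron classes between 91.7 and 163 CPM, except Vip-like nuclei with 48.5 CPM, called lower than other inhibitory nuclei (-1.24), a call kept in 10 of 14 settings. Cluster 18 had the highest Adcy1 level, 299 CPM, with 170.1 to 357 CPM over libraries.

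Adcy9, a widely expressed membrane cyclase, was an excitatory gene among neurons, 297 CPM against 102 CPM in inhibitory nuclei (1.55 [1.47, 1.63]). L6 CT (405 CPM, 394 to 413 over libraries) and cluster 4 (378 CPM, 355 to 390.1) were highest, and their library ranges did not overlap although the levels were within 1.07-fold. Adcy5, a calcium-inhibited cyclase known as the main one of the striatum, stood at 536 CPM in medium spiny-like nuclei (532, 496 and 608 in libraries 1 to 3), next to 87.0 CPM in oligodendrocyte-like nuclei (84.2 to 95.2). Medium spiny-like nuclei exceeded cortical neurons by a log2 ratio of 3.76 [3.67, 3.85]. Adcy6, its close relative, had 3.04 CPM from 8 UMIs there (-2.24) and 14.6 CPM in excitatory nuclei.

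Adcy10 encodes the soluble cyclase that bicarbonate stimulates. L2/3 IT nuclei had 48.1 CPM (50.1, 44.8, 59.1 and 42.6), a log2 ratio of 1.77 [1.61, 1.92], and L6 CT nuclei 6.33 CPM (-2.34 [-2.59, -2.10]). Oligodendrocyte-like nuclei held 44.2 CPM (1.26), and the 77 committed precursor-like nuclei 66.8 CPM, from 13.9 to 216 over libraries and so of no clear rank. Adcy7, common in immune cells, was highest in cluster 13, 64.4 CPM (41.0, 90.6, 83.3 and 48.6), with 13.48 CPM in Sst-like nuclei as the next class. Cluster 13 carries 9 of 9 microglia markers as enriched but is shallow, at a median of 2426 UMIs, and was left unnamed. Adcy3, the cyclase of olfactory neurons and neuronal primary cilia, ran from 30.7 to 59.2 CPM in the excitatory clusters, was called in none of the comparisons within neurons, and had 6.91 CPM (3 UMIs) in committed precursor-like nuclei (-1.84).

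Soluble guanylyl cyclase needs 1 beta subunit, Gucy1b1, and either alpha subunit, Gucy1a1 or Gucy1a2. Gucy1b1 (chr3:82032006-82074689, minus strand, GENCODE M21 on mm10) and Gucy1a1 (chr3:82092427-82145789, minus strand) lie 17.737 kb apart. Gucy1a1 had 59.1 CPM in L2/3 IT (56.9, 56.2, 71.4 and 55.8) and 59.2 CPM in medium spiny-like nuclei, 2 levels within the library spread. In L6 CT it had 7.28 CPM (6.92, 8.02, 3.45 and 8.26) and in L6b 4.09 CPM (2.88, 4.17, 0 and 6.38). No library of L6 CT or L6b reached any library of L2/3 IT, and the log2 ratios were 1.77 [1.63, 1.91] for L2/3 IT, -2.44 [-2.67, -2.22] for L6 CT and -2.77 [-3.68, -1.99] for L6b. Gucy1b1 followed with a smaller range, 98.1 CPM in L2/3 IT (95.7, 93.5, 101 and 102) and 31.5 CPM in L6b (39.3, 32.3, 12.8 and 26.6), where it was called lower (-1.17 [-1.47, -0.88]).

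Over 20 classes, the log2 levels of Gucy1a1 and Gucy1b1 had a Pearson r of 0.848, and over the 12 cortical neuron classes 0.883. Both were the highest r among the pairs of members with at least 500 UMIs. Gucy1a2, the other alpha subunit, had 0.447 and 0.401 with Gucy1b1, and 0.331 and 0.168 with Gucy1a1. The classes share libraries and free RNA and differ in depth, so these r values only describe the 20 points. Gucy1a2 had 474 CPM in L2/3 IT (496, 487, 401 and 491), 303 CPM in L6 CT and 324 CPM in L6b, and its lowest excitatory level was 262 CPM in L5/6 NP. In oligodendrocyte-like nuclei it had 10.5 CPM (-3.45), a call kept in 9 of 14 settings, with ratios from -3.74 to 0.73. Precursor-like nuclei were above other glia (2.38 [2.12, 2.64]), but not called with doublets kept (0.48). Neurons exceeded glia by 2.19 [2.07, 2.32], the only called guanylyl cyclase gene in that comparison.

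**Figure D3:**
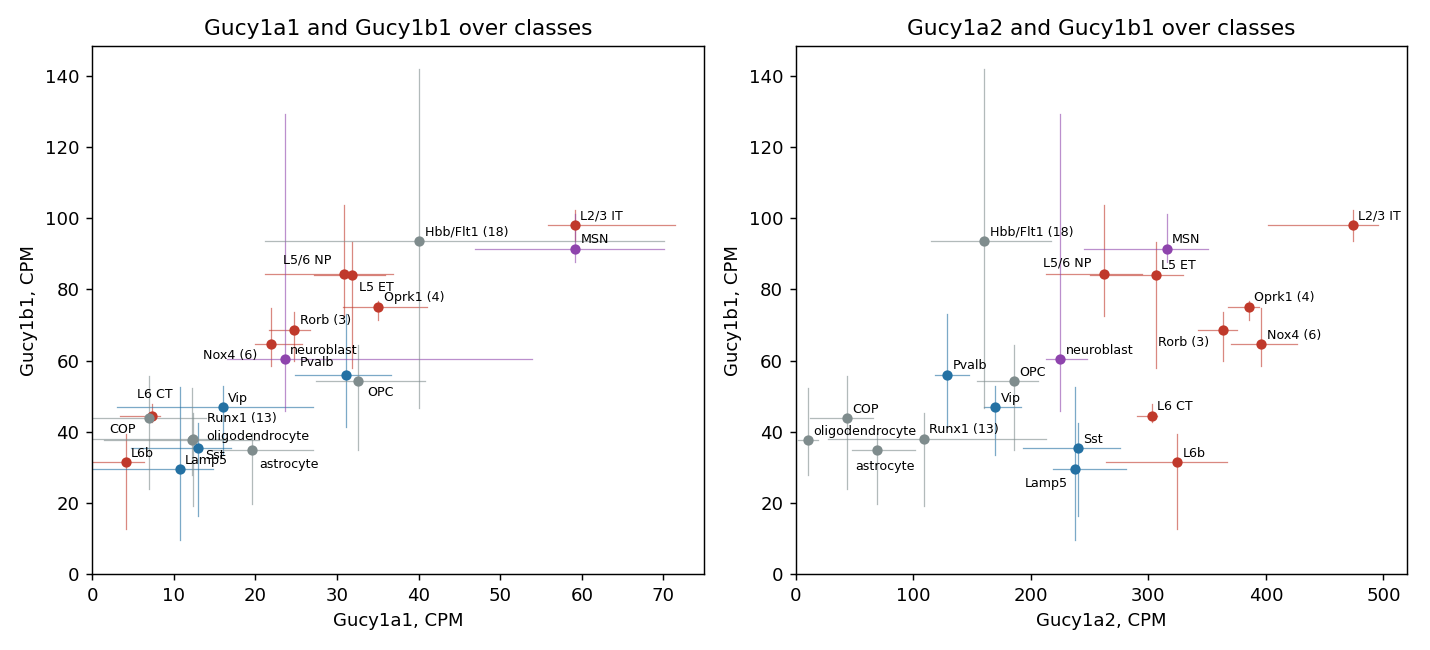
Level of Gucy1b1 against Gucy1a1 (left) and against Gucy1a2 (right) in CPM, 1 point a class, with lines from the lowest to the highest library. Red is excitatory, blue inhibitory, purple medium spiny and neuroblast, and grey glia and clusters 13 and 18. The points run along a diagonal on the left and spread more on the right. The r of the log2 levels, which are not the scale drawn, is 0.848 on the left and 0.447 on the right. L6 CT and L6b lie at the low end of the horizontal axis on the left only, and Gucy1b1 is the vertical axis of both.

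The phosphodiesterases that hydrolyse both nucleotides begin with the Pde1 family, which calcium and calmodulin stimulate. Pde1a had 959 CPM in excitatory nuclei (952, 1035, 953 and 912) and 275 CPM in inhibitory nuclei (332, 269, 149 and 288). No libraries overlapped, and the log2 ratio was 1.80 [1.76, 1.85]. L6b was highest with 1567 CPM and L5/6 NP had 240.3 CPM (-2.17 [-2.26, -2.08]). Among interneurons Sst-like nuclei had 576 CPM (605, 581, 381 and 604) and Pvalb-like nuclei 60.7 CPM (65.6, 57.2, 64.1 and 58.7), with log2 ratios of 2.15 [2.05, 2.26] and -2.86 [-3.03, -2.70]. Pde1c also parted Sst-like nuclei, 136 CPM (131, 186, 125 and 109), from Pvalb-like nuclei, 15.2 CPM (-2.87), and it was lower in Lamp5-like nuclei too, 8.04 CPM (-3.21), where Pde1a had no call. In excitatory nuclei it was 8.68 CPM, below inhibitory nuclei by a log2 ratio of -2.99 [-3.13, -2.85]. In glia, Pde1c was at 189 CPM in precursor-like and 175 CPM in oligodendrocyte-like nuclei, with overlapping libraries, and at 22.9 CPM in astrocyte-like nuclei (-2.89, and 0.45 at the 1% limit). Pde1b stood at 295 CPM in medium spiny-like nuclei (308, 268 and 295 in libraries 1 to 3), against 44.4 CPM in L6b as the next class. Its call in neurons over glia (1.01) was not kept without library 2 (0.97) or library 4 (0.96), and was kept in 5 of 14 settings, with ratios from -0.14 to 1.15.

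Pde2a, which cGMP stimulates to break down cAMP, was higher in neurons than in glia, 151 against 35.6 CPM (2.09 [1.91, 2.27]). Medium spiny-like nuclei (310.1 CPM) and L2/3 IT (234 CPM) were highest. The Pde3 enzymes cleave cAMP and are slowed by cGMP, and the family's pair of genes divided by cell class. Pde3a had 0.960 CPM in excitatory nuclei and 175 CPM in oligodendrocyte precursor-like nuclei (187, 157, 165 and 186), with a log2 ratio of 1.85 [1.61, 2.09] there over other glia and of -5.04 [-5.25, -4.83] for neurons over glia. In Vip-like nuclei it had 50.04 CPM (38.7, 87.9, 21.3 and 38.2), 2.72 [2.28, 3.16] above other inhibitory nuclei, a call that ended without library 2 although the ratio was then 3.06. Pde3b had 776 CPM in cluster 13 (755, 974, 1134 and 443), a log2 ratio of 4.78 [4.57, 5.0008] over named glia. Of cluster 13 nuclei 79.5% had a Pde3b UMI, and 64.8% after thinning each nucleus to 1500 UMIs, against 2.37% and 0.647% in oligodendrocyte-like nuclei. The neuron comparison for this gene turned with the 2 unnamed clusters: the log2 ratio of neurons over glia was 1.05, and -1.60 with clusters 13 and 18 counted as glia. It was kept in 7 of 14 settings, and not without library 4 (0.96).

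Pde10a, the striatal enzyme with both activities, had 3488 CPM in medium spiny-like nuclei (3458, 2952 and 4461 in libraries 1 to 3). Astrocyte-like nuclei came next with 2814 CPM (3203, 3140, 3475 and 1903), and the libraries of both overlapped. Oligodendrocyte-like nuclei had 47.2 CPM (68.3, 43.6, 22.1 and 49.1), far under every other class but the committed precursor-like nuclei (69.1 CPM). Log2 ratios were 1.29 [1.26, 1.32] for medium spiny-like over cortical neurons, 3.88 [3.78, 3.98] for astrocyte-like and -5.04 [-5.29, -4.80] for oligodendrocyte-like nuclei over other glia. Neither glial call was kept at the 1% mitochondrial limit (0.93 and -0.21). A Pde10a UMI was in 86.6% of astrocyte-like and 11.4% of oligodendrocyte-like nuclei.

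Pde11a, an enzyme with both activities, had the most negative ratio of excitatory over inhibitory nuclei. Lamp5-like nuclei, a class that includes neurogliaform interneurons, had 610.3 CPM (629, 489, 969 and 613), Vip-like nuclei 83.1 CPM (112, 119.6, 30.4 and 47.7), Pvalb-like nuclei 14.5 CPM and excitatory nuclei 0.969 CPM. Every Lamp5-like library was above every library of Vip-like nuclei. Lamp5-like over other inhibitory nuclei gave 4.86 [4.65, 5.07], and excitatory over inhibitory nuclei -6.21 [-6.53, -5.91], with -6.0003, -6.43, -6.28 and -6.21 in the libraries. A UMI was found in 76.1% of Lamp5-like nuclei (67.3 to 83.5, exact 95% interval) and in 51.3% after thinning. Oligodendrocyte-like nuclei had 0 UMIs, which allows up to 1.02 CPM. The Lamp5 cluster is 117 nuclei, and over the settings tried its log2 ratio ran from 4.49 to 5.28. It was not called at the 1% mitochondrial limit, where the ratio was 4.86.

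Among the cAMP-specific enzymes, Pde4b was highest in oligodendrocyte-like nuclei. Oligodendrocyte-like nuclei held 8725 CPM (7853, 9337, 9874 and 8014), precursor-like nuclei 1799.6 CPM (2015, 1817, 1917 and 1596) and astrocyte-like nuclei 277 CPM (229, 241, 325 and 317). These 3 sets of libraries did not overlap, and the log2 ratios to other glia were 3.03 [2.98, 3.07], -1.46 and -4.37 [-4.49, -4.25]. The precursor-like call was kept in 10 of 12 settings. The astrocyte-like call was not kept at the 1% mitochondrial limit, and its ratios ran from -4.80 to -1.70 over the 14 settings. A Pde4b UMI was in 99.9% of oligodendrocyte-like nuclei thinned to 1500 UMIs and in 8.63% of Pvalb-like nuclei thinned alike. In neurons, excitatory nuclei had 832 CPM (806, 829, 920.2 and 821) and inhibitory nuclei 193 CPM (205, 195, 169.96 and 193), a log2 ratio of 2.11 [2.05, 2.16]. Vip-like nuclei were the highest interneuron class with 468 CPM (422, 461, 450.1 and 532), 1.69 [1.57, 1.81] over the others.

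Pde4d, the other abundant Pde4 gene, was lowest where Pde4b was highest. Oligodendrocyte-like nuclei had 144 CPM (147, 192, 115 and 118), -3.08 [-3.23, -2.94] against other glia, kept in 12 of 14 settings and turned at the 1% limit (0.35). Precursor-like nuclei were higher (1.47), kept in 10 of 12 settings. L6 CT was the highest class with 3374 CPM (3265, 3505, 3459 and 3344) and L6b had 3185 CPM, with overlapping libraries. L5/6 NP had 886 CPM (-1.60 [-1.64, -1.55]), and medium spiny-like nuclei 356 CPM (-2.64 [-2.74, -2.55] against cortical neurons). Vip-like nuclei had 2266 CPM of Pde4d (2069, 2214, 2743 and 2219), 1.09 [1.04, 1.14] over other inhibitory nuclei, kept in 11 of 14 settings. Pde4a was excitatory among neurons, 190.0 against 76.5 CPM (1.31 [1.22, 1.40]), and within excitatory nuclei L2/3 IT had the lowest level, 67.3 CPM (82.1, 53.0, 68.8 and 67.2), where L6 CT had 218 CPM (213 to 234), -1.60 [-1.69, -1.50]. The rare Pde4c had 0 UMIs in oligodendrocyte-like nuclei, which allows up to 1.02 CPM, and had its highest level, 16.7 CPM, in cluster 18.

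Pde7b, a cAMP-specific enzyme of the striatum, was called in more comparisons than any other member. Medium spiny-like nuclei had 2325 CPM (2325, 2148 and 2624 in libraries 1 to 3) and astrocyte-like nuclei 1125 CPM (1272, 1260.3, 1179 and 872). Precursor-like nuclei had 509 CPM and oligodendrocyte-like nuclei 5.78 CPM from 17 UMIs, so that the glial log2 ratios ran from 2.63 [2.52, 2.74] for astrocyte-like to -7.03 [-7.81, -6.35] for oligodendrocyte-like nuclei. The astrocyte-like call was not kept at the 1% mitochondrial limit, and its ratios ran from 2.14 to 5.10 over the 14 settings. Within excitatory nuclei, L2/3 IT had 272 CPM (269, 221, 433 and 219), while L5/6 NP had 7.46 CPM and L6b 6.61 CPM. The log2 ratios were 3.19 [3.10, 3.28], -3.58 [-4.16, -3.06] and -3.74 [-4.43, -3.12]. Library 3 was the highest in L2/3 IT and in all excitatory nuclei, 214 CPM against 112, 88.0 and 106 CPM in libraries 1, 2 and 4. Its call in excitatory over inhibitory nuclei, 1.11 [1.00, 1.22], ended without library 3 (0.86). Interneurons parted as well: Lamp5-like nuclei had 138 CPM (91.5, 146, 116 and 187) and Vip-like nuclei 123 CPM, both called higher than the other inhibitory nuclei (1.57 and 1.54), while Pvalb-like nuclei had 27.3 CPM (23.9, 21.99, 22.8 and 36.6) and were lower (-1.47 [-1.74, -1.21]). Pde7a, the other Pde7 gene, ran from 45.9 CPM in astrocyte-like to 118 CPM in committed precursor-like nuclei and was called in no comparison.

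Pde8a and Pde8b are cAMP-specific enzymes of high affinity, and their glial levels went opposite ways. Pde8a had 579 CPM in oligodendrocyte-like nuclei (532, 569.9, 660.4 and 569.7), then 48.3 CPM in astrocyte-like nuclei and 44.2 CPM in precursor-like nuclei. Committed precursor-like nuclei, which also carry oligodendrocyte lineage markers, had 13.8 CPM of Pde8a. Excitatory nuclei had 8.44 CPM. Oligodendrocyte-like nuclei exceeded other glia by 3.75 [3.53, 3.97], and the log2 ratio of neurons over glia was -4.84 [-4.95, -4.73]. The oligodendrocyte-like call was not kept at the 1% mitochondrial limit, and its ratios ran from 1.39 to 3.98 over the 14 settings. Of oligodendrocyte-like nuclei 74.5% had a Pde8a UMI (71.7 to 77.3), and 57.3% after thinning, against 9.69% and 1.33% in L2/3 IT. Pde8b had 626 CPM in astrocyte-like nuclei (624, 648, 605 and 618) and 19.7 CPM in oligodendrocyte-like nuclei (-4.36, and -0.93 at the 1% limit). Neurons had 165 CPM. Medium spiny-like nuclei had 448 CPM of Pde8b, a log2 ratio of 1.44 over cortical neurons. Within excitatory nuclei, L5 ET was lower in Pde8b, 65.8 CPM (65.1, 69.0, 69.1 and 63.2), at -1.23 [-1.32, -1.14].

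**Figure D4:**
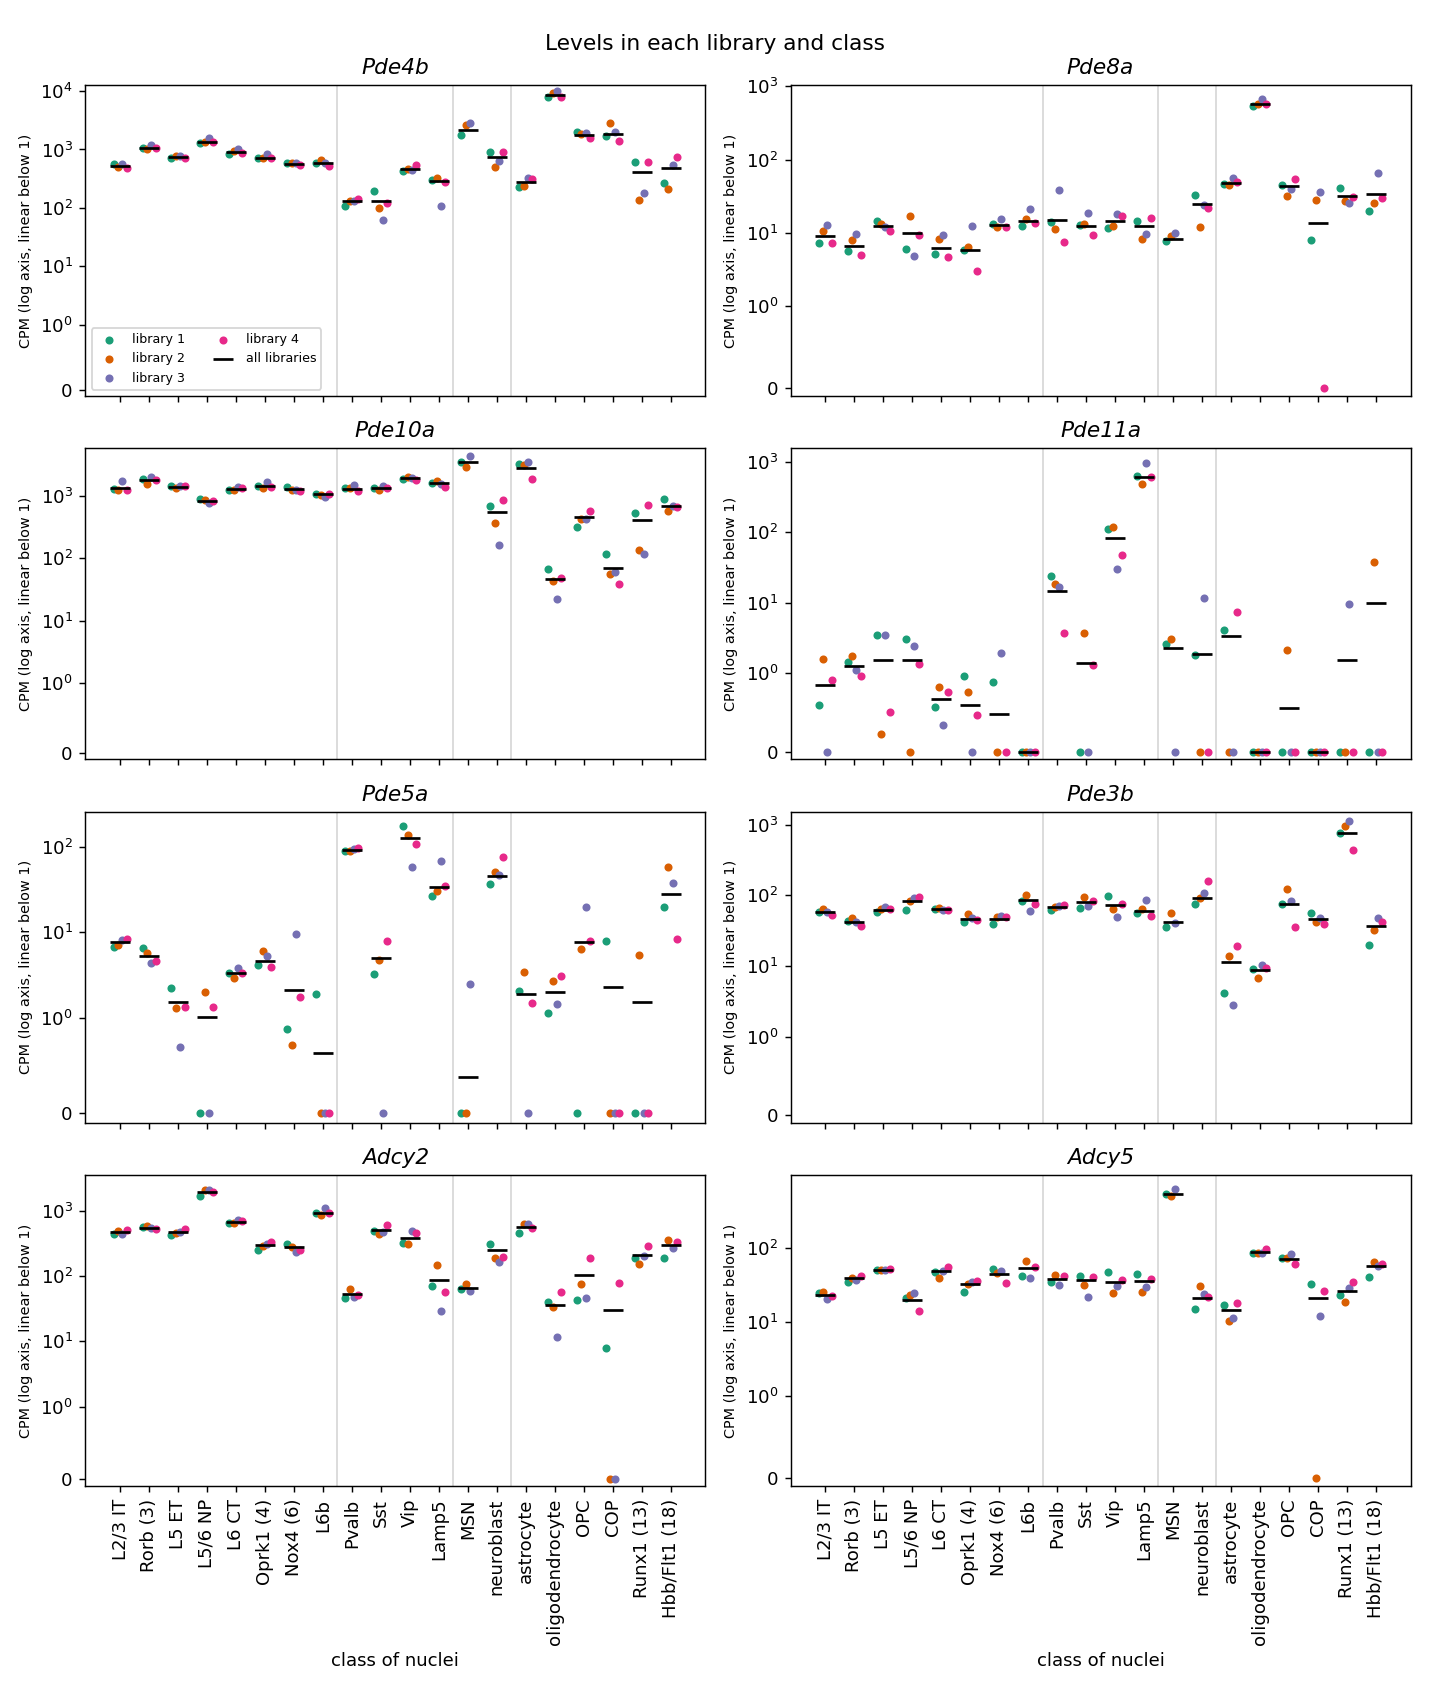
Levels of Pde4b, Pde8a, Pde10a, Pde11a, Pde5a, Pde3b, Adcy2 and Adcy5 in CPM by class, on a log axis that is linear below 1. Coloured dots are single libraries with at least 10 nuclei of the class and black bars all libraries. Pde4b and Pde8a peak in oligodendrocyte-like nuclei (8725 and 579 CPM), Pde11a in Lamp5-like nuclei (610.3 CPM) and Adcy5 in medium spiny-like nuclei (536 CPM).

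The cGMP-specific enzymes follow. Pde5a, which removes the cGMP made by nitric oxide, had 125 CPM in Vip-like nuclei (174, 135, 57.8 and 109) and 92.6 CPM in Pvalb-like nuclei (89.5, 87.9, 95.2 and 97.4), 2 classes whose libraries overlap. Sst-like nuclei had 4.97 CPM (3.25, 4.70, 0 and 7.95), under all of those. Excitatory nuclei had 3.996 CPM, and the log2 ratio of excitatory over inhibitory nuclei was -3.9996 [-4.17, -3.83], with -4.02, -4.06, -3.77 and -4.03 in the libraries. Against the other inhibitory nuclei, Pvalb gave 1.16 [0.95, 1.37] and Sst -4.22 [-4.92, -3.59]. Vip-like nuclei had no call for this gene. Among excitatory clusters L2/3 IT was the only one called higher, at 7.67 CPM (6.81, 7.19, 8.18 and 8.43; 1.70 [1.31, 2.09]). A UMI of Pde5a was in 46.0% of Pvalb-like, 42.8% of Vip-like and 3.44% of Sst-like nuclei, and in 12.5%, 13.2% and 0.920% after thinning.

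Pde9a, the phosphodiesterase of highest affinity for cGMP, was highest in committed precursor-like nuclei, 228 CPM (246, 181, 228 and 235), 3.74 [3.34, 4.14] over other glia. Oligodendrocyte-like nuclei had 2.38 CPM from 7 UMIs and precursor-like nuclei 13.8 CPM, so of the 3 oligodendrocyte lineage classes the committed precursor-like nuclei had by far the most. Within excitatory nuclei, L6 CT had 58.5 CPM (56.7, 58.6, 55.9 and 60.8), 1.32 [1.20, 1.44], and L2/3 IT 10.2 CPM (-2.15 [-2.40, -1.91]). Cluster 4 had 1.53 CPM (2.57, 1.52, 0 and 1.40). Pde9a in Pvalb-like nuclei (72.1 CPM, 1.10) and Sst-like nuclei (-1.02) lost its call without library 3 (0.98 and -0.96).

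The Pde6 genes form the photoreceptor enzyme of the retina, and Pde6b, Pde6c and Pde6g were among the rare members here. Pde6a, a catalytic subunit, ran up to 21.3 CPM in medium spiny-like nuclei, with 12.9 CPM in excitatory nuclei and 0.824 CPM, 6 UMIs, in named glia (3.91 for neurons over glia). Pde6h, an inhibitory subunit of cones, had 10.5 CPM in L5 ET (10.8, 10.1, 8.38 and 11.1), 1.55 over other excitatory nuclei, and 19.6 CPM from 38 UMIs in cluster 13. Called higher in neurons than named glia (2.19), it had a log2 ratio of -0.0224 with clusters 13 and 18 counted as glia. Pde6c, with 106 UMIs in excitatory and 40 UMIs in inhibitory nuclei, was called lower in excitatory nuclei (-1.55). Pde4c and Pde6b were called in neurons over glia on 2 and 4 glial UMIs (1.92 and 1.02). Pde6d, which carries prenylated proteins rather than hydrolysing a nucleotide, varied little, between 20.04 and 60.5 CPM over the 20 classes.

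Medium spiny-like nuclei thus differed from cortical neurons by a set with both signs. The 8 genes called higher were Pde1c (853 CPM, with 749, 1129.9 and 816 CPM in libraries 1 to 3, 5.78 [5.69, 5.87]), Pde7b (4.40 [4.35, 4.44]), Pde1b (3.81 [3.69, 3.92]), Adcy5 (3.76), Pde8b (1.44), Pde10a (1.29), Gucy1a1 (1.17) and Pde2a (1.03). The 9 called lower were Pde5a, Adcy2, Pde1a, Pde3a, Pde4d, Adcy6, Pde11a, Adcy7 and Adcy10. Adcy2 had 65.3 CPM there (-3.06 [-3.29, -2.85]) and Pde1a 132 CPM (-2.74 [-2.89, -2.59]). Gucy1a1 kept its call in 10 and Pde2a in 8 of 14 settings. Pde3a turned to 2.03 at the 20% mitochondrial limit and to 2.55 with doublets kept. Pde5a and Pde3a each rest on 1 UMI, Adcy7 on 3 and Pde11a on 6, and without library 1, which holds most of these nuclei, Adcy10 (-0.96) and Adcy7 (-0.66) were not called. Leaving out library 4 added Pde4b (1.5003 [1.46, 1.54]), Pde6b (1.30 on 8 UMIs), Adcy8 (-3.40) and Adcy1 (-1.96), which the single nucleus of that library had kept under the rule for a call. The summed excitatory marker list was 1467 CPM in medium spiny-like nuclei, and its part in these values was not tested.

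Neuroblast-like nuclei, a cluster led by Top2a, differed from cortical neurons in 15 of 35 genes (21.2% of all genes), 5 higher (10.9%) and 10 lower (10.3%). The cluster's libraries held 132, 97, 18 and 11 nuclei. Oligodendrocyte precursor markers were its second list, with a score of 1.66 against 3.01. Its astrocyte markers summed to 1719 CPM, from 399 to 2425 over libraries. The part of such RNA in its values was not tested. Pde3a (90.7 CPM, 5.22), Pde1c (3.46), Pde5a (45.3 CPM, 2.07), Pde8a (1.44) and Pde6d (1.24) were higher. Pde1a (-1.76), Adcy1 (-1.63), Adcy9 (-1.42), Pde2a (-1.42), Pde10a (-1.34), Pde4a (-1.30) and Adcy2 (-1.10) were lower. Pde4c, Pde6a and Pde6c are also among the 10 called lower, with 0 UMIs, which allows up to 2.83 CPM. Cortical neurons of libraries 1 to 3 held 1.02 CPM of Pde4c, 1.33 CPM of Pde6c and 12.9 CPM of Pde6a. For Pde4c and Pde6c the limit is above the cortical level, so these calls cannot show a lower level. Cluster 13 differed from named glia in 15 of 28 genes (27.1% of all genes), with Adcy7 (4.78 [4.05, 5.61]) and Pde3b first and Pde4b among the lower ones (-3.36). Cluster 18 differed in 11 of 26 (27.6% of all genes), with Adcy1 (2.09) and Pde2a (2.00) highest. It also had the highest Slc17a7 level of all classes, given above. Of the unnamed excitatory clusters, cluster 3 had 5 of 30 genes called (7.54% of all genes), cluster 4 had 4 of 30 (7.2%) and cluster 6 had 4 of 30 (8.72%). Pde9a was lower in each of these clusters, at -2.00, -4.61 and -1.46, and Pde7b was higher in clusters 3 (1.21) and 4 (1.18) and lower in cluster 6 (-2.29).

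Nuclei with at least 1 UMI of the TRE-mCherry transcript were compared with those without it inside 6 neuron classes that held at least 50 such nuclei. Which treatment these nuclei had is not known here. In L2/3 IT (156 nuclei with and 1051 without), 0 of 27 genes were called, where 0.409% of all genes were called. Calls were 1 of 28 in L5 ET (1.03%), 0 of 27 in L6 CT (0.623%), 0 of 24 in Pvalb-like (1.21%), 0 of 30 in cluster 3 (0.484%) and 2 of 24 in cluster 4 (1.02%). Pde7b was lower in reporter-positive L5 ET nuclei, 10.1 against 33.6 CPM (-1.74 [-2.53, -1.05]), and in reporter-positive cluster 4 nuclei, 97.1 against 199 CPM (-1.04 [-1.35, -0.74]). After thinning to 1500 UMIs neither was called (-1.15 and -0.95). In the other 4 classes its log2 ratio was -0.77 in L2/3 IT, -0.58 in L6 CT, -0.59 in cluster 3 and 0.17 in Pvalb-like nuclei, none called. Library 3, which had the highest Pde7b level in excitatory nuclei, held 2 of the 96 positive L5 ET nuclei and 3 of the 84 in cluster 4, and its part in the result was not tested. Adcy6 was lower in cluster 4 on 6 UMIs (-1.34), and after thinning it was not called (-0.80). Positive nuclei were deeper, with medians of 16227 against 13639 UMIs in L5 ET. The part of depth in these calls was not tested, since thinning also takes away UMIs that a call needs.

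Genes around these enzymes were read from 10 lists, of which 65 of 66 genes were in the features. Nitric oxide synthases and their adaptor had 2 of 3 genes higher in neurons than in glia, among them Nos1ap (2.21 [2.11, 2.30]). Nos1, the neuronal synthase that feeds soluble guanylyl cyclase, was lower in excitatory than in inhibitory nuclei (-2.21 [-2.34, -2.07]). Membrane guanylyl cyclases and natriuretic receptors had 1 of 3 higher in neurons, Npr3, which clears natriuretic peptides (2.40 [1.93, 2.92]). G-alpha subunits had 1 higher and 2 lower of 7, with Gnao1 lower in neurons (-1.72 [-1.76, -1.68]) and a list median of -0.27. Gnal, the G-alpha subunit that couples striatal dopamine receptors to Adcy5, was the 1 of 7 called in medium spiny-like nuclei (3.43 [3.36, 3.49]).

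Downstream, protein kinase A genes had 2 higher and 0 lower of 9 in neurons over glia, Pkib, an inhibitor (2.17), and Prkar2b, a regulatory subunit (1.76), with a list median of 0.71, and 0 of 9 in excitatory over inhibitory nuclei. Protein kinase G had 1 of 2, Prkg1 (1.10). Of the cAMP-binding exchange factors and Popeye proteins, 1 of 4 was higher in neurons, Rapgef4 (2.80 [2.67, 2.94]), and 1 was lower, Rapgef3 (-5.09 [-5.29, -4.89]). Rapgef3 was also called in L5/6 NP nuclei over other excitatory nuclei, at 41.9 against 0.858 CPM (5.61), the class with the highest Adcy2. A-kinase anchoring proteins had 0 of 10 called in that comparison and 0 of 10 in excitatory over inhibitory nuclei. The CREB family had 0 higher and 1 lower of 8 in both, Creb5 each time (-4.93 [-5.07, -4.79] and -4.62), with list medians of -0.38 and -0.22. The remaining 2 phosphodiesterase-related genes gave 0 calls. These counts stand beside the 37.1% and 16.6% of all genes called in the same comparisons.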

How the data were processed

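Nuclear RNA of medial prefrontal cortex was counted as UMIs per feature and barcode. The deposited values are raw counts, whole numbers in 1 matrix without normalization, which the authors made with Cell Ranger 7.1.0, per the file headers, on the build mm10, per the submitters' processing notes. The labels give 4 samples, but no source used here ties a barcode ending to one, so the matrix was taken as 1 sample, without a test between groups. Library totals were 19968985 to 57947155 UMIs.

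A barcode was kept with 500 genes or more, 800 UMIs or more and no more than 5% mitochondrial UMIs. This removed 9132 barcodes, 8638 of them over the mitochondrial limit, and a Scrublet score above 0.25 removed 279 as doublets. Clusters came from 2000 variable genes without the members and the pathway genes, 30 principal components, 15 neighbours and the Leiden method at resolution 1.0 (scanpy 1.11.5, Python 3.11.15). They were named "-like" where at least 3 markers of 1 of 33 lists were enriched at least 2-fold at 10 CPM or more and no second list scored above 0.85 of the best. Shallow clusters with no marker among their 10 leading genes, and globin-led ones, stayed unnamed. UMIs were summed over a class. Ratios have exact conditional binomial and shares exact Clopper-Pearson 95% intervals, and thinning drew 1500 UMIs per nucleus, leaving out shallower ones. The calling steps were tested on simulated data. The limit for a level at 0 is 3 counts.

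The members and lists were chosen with earlier results of these data known. Members with at least 500 UMIs are all named, rarer ones where called, and of each pathway list the called genes of largest ratio. The result of 1 pathway list is not reported here. Gene positions come from GENCODE M21 and promoters from RefSeq. Alternatives were other mitochondrial limits, a minimum of 1000 genes, doublets kept, resolutions 0.5 and 2.0, thinning, libraries weighted equally, a minimum of 20 UMIs and each library left out.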

Additional observations from a re-analysis of the deposited data

How the results depend on the processing

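No paired analysis was possible because the barcode endings name no sample. Of 160 calls of members with at least 500 UMIs in 16 class comparisons, 149 to 151 were kept without 1 library, 157 with libraries weighted equally, 160 with a minimum of 20 UMIs, 144 at resolution 2.0, 142 with at least 1000 genes, 126 at a 20% mitochondrial limit, 124 with doublets kept, 113 at resolution 0.5, 112 after thinning and 73 at a 1% limit, where 30 had no value. Counting clusters 13 and 18 as glia, and unnamed excitatory clusters in the compared side, an alternative chosen after seeing the data, kept 147.

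Without 1 library, calls ranged from 18 to 20 in neurons over glia (21 with all), 11 to 14 in excitatory over inhibitory nuclei (12), 33 to 38 in excitatory classes (35), 25 to 29 in inhibitory classes (28), 48 to 52 in glial classes (50), 15 to 21 in medium spiny-like nuclei (17) and 2 to 6 with the reporter (3). At the 1% limit there were 7 calls in neurons over glia, 16 in inhibitory and 4 in glial classes. The 20% limit gave 18 in inhibitory classes, 77 in glial classes and 1 with the reporter, and resolution 0.5 gave 22 in glial classes. Thinning gave 11 in medium spiny-like nuclei and 1 with the reporter, Pde3b in L5 ET nuclei. Reporter calls were 6 with at least 1000 genes, 1 with doublets kept, 7 with equal weights and 8 with the minimum of 20 UMIs.

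Signs turned for some calls. At the 1% limit the log2 ratio of neurons over glia was -0.15 for Adcy2, -0.14 for Pde1b and -1.44 for Pde3b. In astrocyte-like nuclei it was 0.45 for Pde1c and 3.66 for Pde3a, and in oligodendrocyte-like nuclei 1.13 for Adcy6, 0.71 for Adcy8, 0.73 for Gucy1a2, 0.48 for Pde1a, 0.35 for Pde4d and 0.25 for Pde9a. The 20% limit gave -1.64 for Pde3b in neurons over glia, -1.42 for Pde3b in precursor-like nuclei, 0.44 for Pde1c in committed precursor-like nuclei and 2.03 for Pde3a in medium spiny-like nuclei. With doublets kept, Pde1a was -0.39 in precursor-like and Pde3a 2.55 in medium spiny-like nuclei. Resolution 0.5 gave 0.85 for Pde1a and 0.17 for Pde3b in oligodendrocyte-like nuclei, and thinning 0.16 for Gucy1a1 in Lamp5-like nuclei. With the unnamed clusters added, Pde3b was -1.60 in neurons over glia and -1.42 in precursor-like nuclei, and Pde6h -0.0224 in neurons over glia. The cause was not tested. Fewer nuclei were left at the 1% limit, 39 astrocyte-like, 34 oligodendrocyte-like and 88 medium spiny-like. The set of named glia changed as well. At the 1% limit no precursor-like or committed precursor-like class was named, and 40 microglia-like nuclei were. The 20% limit added 1060 microglia-like and 315 endothelial-like nuclei, and keeping doublets added 103 microglia-like ones. Resolution 0.5 named neither precursor class.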
